A study of Mus musculus with 12 samples.

Results

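Fatty acids that enter a liver cell were followed here through 10 genes, whose RNA was measured by RNA sequencing in 12 libraries given as mouse liver. The 10 genes encode the long-chain acyl-CoA synthetases Acsl1, Acsl3, Acsl4, Acsl5 and Acsl6, the fatty acid transport proteins Slc27a2, Slc27a4 and Slc27a5, and the cytosolic fatty acid binding proteins Fabp1 and Fabp2. They were picked by gene symbol from the 35275 genes of the deposited table, and all 10 were found there. Their values are FPKM, fragments scaled by gene length and by library depth, which allows levels to be set beside each other between genes. Of the 10 genes, 9 had a mean of at least 0.5 FPKM over the 12 libraries and entered the test, and Acsl6 did not.

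The libraries form 4 groups of 3, which the series design text calls biological replicates. KO HFD came from mice with a liver knockout of Hnf4a on a high fat diet, and KO chow from knockout mice on vivarium chow. WT HFD came from wild-type mice on the high fat diet, and WT chow from wild-type mice on vivarium chow. The labels give no age, sex, strain, diet composition or duration of feeding, and do not say how the knockout was made. In bulk tissue, fewer cells of a type and less RNA per cell cannot be told apart.

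A fatty acid is poorly soluble and must be converted to its acyl-CoA before a cell can oxidize it, store it as triglyceride or build it into phospholipid. Binding proteins carry the free acid and acyl-CoA through the cytosol, while synthetases and several transport proteins attach coenzyme A and thereby trap the acid in the cell. In hepatocytes these steps feed mitochondrial oxidation and the triglyceride that is stored or exported. Hnf4a encodes a nuclear receptor that drives much of hepatocyte gene expression and binds direct repeats of a half-site with 1 base between them, and the fatty acid receptor encoded by Ppara binds related repeats.

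The libraries set limits that touch each comparison. Depth was 15705196 to 20311766 reads on genes per library. Hnf4a RNA overlapped between the libraries labelled knockout and wild type, at 108, 98.8 and 138 FPKM in KO HFD and 158, 132 and 130 FPKM in KO chow, against 133, 116 and 120.2 FPKM in WT HFD. In WT chow the values were 126, 75.8 and 0.0973 FPKM. A whole-gene value does not measure the deletion itself, and KO and WT below are names taken from labels that Hnf4a RNA did not follow. The WT chow 2 and WT chow 3 libraries stood apart, with a median correlation across genes with the other libraries of 0.806 for WT chow 2 and 0.576 for WT chow 3, while the other 10 libraries correlated at 0.931 to 0.988 in every pair. Summed hepatocyte markers, 13 genes such as Alb and Apoa1, were 40698 to 59785 FPKM in KO HFD, 52413 to 55022 in KO chow, 64063 to 70235 in WT HFD and 38.7 to 60532 in WT chow. Results are given for all 12 libraries and, where it changes them, for the 10 without WT chow 2 and 3.

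The promoters of Fabp1, Fabp2 and Acsl4 are shown because these are the most abundant of the 10 genes (Fabp1) and the pair with the smallest adjusted p for diet in KO. Each is the 250 bases before the RefSeq start site on GRCm38.p6, read 5′ to 3′ on the strand of the gene. Capitals mark matches to motifs that were chosen after the sequences had been read. The windows are chr6:71199629-71199878 on the plus strand for Fabp1, chr3:122894822-122895071 on the plus strand for Fabp2 and chrX:142390536-142390785 on the minus strand for Acsl4.
Fabp1: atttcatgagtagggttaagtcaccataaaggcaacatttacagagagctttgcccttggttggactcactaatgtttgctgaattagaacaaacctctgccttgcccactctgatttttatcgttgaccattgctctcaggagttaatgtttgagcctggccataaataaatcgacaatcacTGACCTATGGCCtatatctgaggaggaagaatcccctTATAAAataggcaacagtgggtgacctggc
Fabp2: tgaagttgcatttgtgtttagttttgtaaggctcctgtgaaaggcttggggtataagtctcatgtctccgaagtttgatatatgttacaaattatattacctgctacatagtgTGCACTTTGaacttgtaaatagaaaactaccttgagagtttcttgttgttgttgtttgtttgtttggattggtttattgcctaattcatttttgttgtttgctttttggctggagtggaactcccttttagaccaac
Acsl4: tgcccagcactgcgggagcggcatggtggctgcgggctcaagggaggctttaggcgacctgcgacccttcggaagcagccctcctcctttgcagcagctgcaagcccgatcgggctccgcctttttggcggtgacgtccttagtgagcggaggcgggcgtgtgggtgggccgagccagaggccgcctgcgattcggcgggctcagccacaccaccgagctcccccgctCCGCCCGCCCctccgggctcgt

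In the Fabp1 window the first capitals, at −67 to −56 from the start site, match on the minus strand the direct repeat GGNCANAGGNCA, in which N is any base. The second capitals are a TATAAA box at −30 to −25. On either strand, the repeat is found in 0.694% of the 32851 RefSeq promoters of the same length and the TATA box in 12.4%. Among the 9 of the 10 genes with a promoter in that table, each of these motifs was found in Fabp1 alone. The Fabp2 capitals, at −137 to −129, match on the minus strand the core CAAAGNNCA of an HNF4 site, which 5.49% of promoters hold. The Acsl4 capitals, close to its start site, are a pair of overlapping GC boxes, GGGCGG on the minus strand, a motif that 32.7% of promoters and 6 of the 9 genes hold (Acsl1, Acsl3, Acsl4, Acsl6, Slc27a2 and Slc27a4). A match describes letters in these windows and is not evidence that a factor binds there. The deposited table places Acsl4 on chromosome X from 142317993 to 142390535 (minus strand), Fabp1 on chromosome 6 from 71199827 to 71205023 and Fabp2 on chromosome 3 from 122895072 to 122899506 (both plus strand).

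Levels of the 10 genes spanned several orders of magnitude. Over the 10 libraries without WT chow 2 and 3, the median was 7846 FPKM for Fabp1, 319.8 for Slc27a5, 281 for Slc27a2, 134 for Acsl1, 81.4 for Acsl5 and 75.7 for Fabp2. It was 9.29 FPKM for Slc27a4, 8.42 for Acsl4, 5.29 for Acsl3 and 0.0104 for Acsl6. Neighbours in this order overlapped in range except Fabp1 over Slc27a5, Fabp2 over Slc27a4 and Acsl3 over Acsl6. Slc27a5 exceeded Slc27a2 in 7 of 10 libraries, Acsl5 exceeded Fabp2 in 5 of 10 and Slc27a4 exceeded Acsl4 in 6 of 10, so these pairs had no fixed order. In each of the other neighbouring pairs the first gene was the higher in all 10 libraries. Fabp1, Slc27a5 and Slc27a2 thus lay above all 5 Acsl genes by median.

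**Figure D1:**
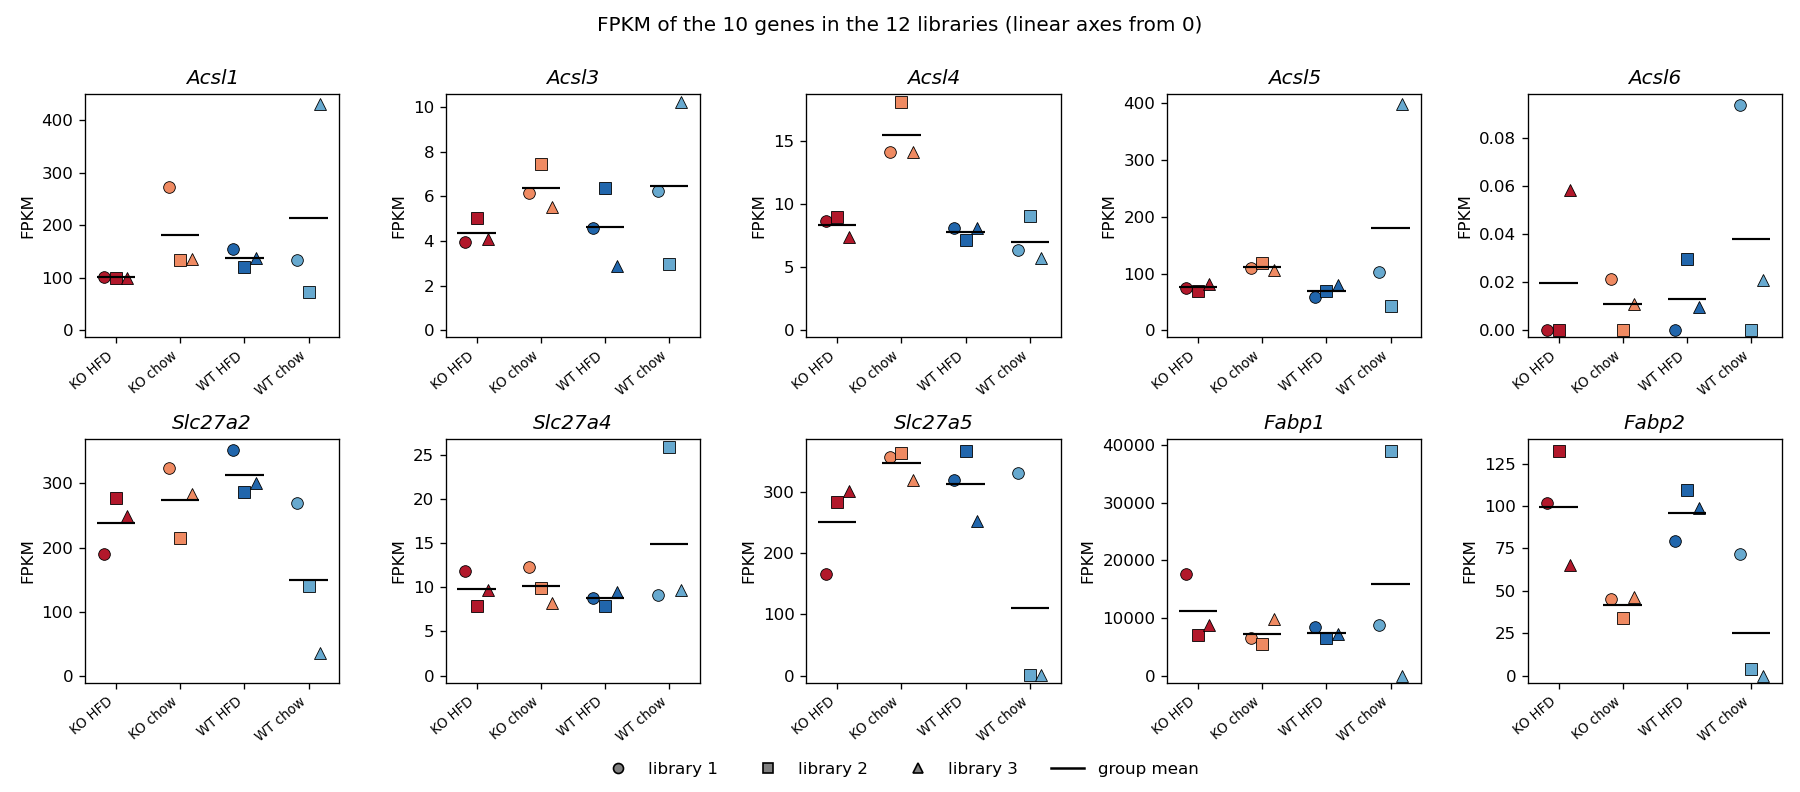
FPKM of each of the 10 genes (linear vertical axes starting at 0, a panel per gene) in the 3 libraries of each group, with the symbol giving the library number and the bar the group mean. Acsl4 in KO chow, at 14.1 to 18.1 FPKM, lies above the other 9 libraries, and the WT chow points spread more widely than those of any other group for 9 of the 10 genes, all but Acsl4.

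The diet comparison within the libraries labelled KO asks what a high fat diet did to liver RNA in mice given as lacking Hnf4a in liver. Acsl4 and Acsl5 were lower and Fabp2 was higher in KO HFD than in KO chow, with no overlap between the groups, and these 3 passed the test when WT chow 2 and 3 were left out. With all 12 libraries none of the 9 tested genes passed, against 0.155% of all 12251 genes tested (19 genes). Those 19 included all 8 tested markers of exocrine pancreas, each higher in KO HFD. Of these markers, Prss2, Pnlip, Cpa1 and Cel were at 0 outside KO HFD. Genes at 0 elsewhere entered the test only through KO HFD. Of the 9, 1 gene, Acsl4, had an unadjusted p under 0.05 in limma, as did 924 of all genes. In limma on 10 libraries, without WT chow 2 and 3, 3 of the 9 passed the adjusted threshold of 0.05, where 7.76% of all genes did. The split was 1 of 9 higher against 1.52% of genes, and 2 of 9 lower against 6.24%. The groups did not overlap for 5 of the 9 in the lower direction (21.6% of all genes) and for 1 of the 9 in the higher direction (9.98%). The median log2 difference of the 9 genes was −0.46, beside −0.06 over all genes tested. Leaving out WT chow 2 and 3 moved no KO value and narrowed the spread that all groups share in the fit. On 9 libraries, without KO HFD 1 as well, none of the 9 passed (0.318% of all genes did), with limma adjusted p of 0.0632 for Acsl4, 0.0775 for Acsl5 and 0.0679 for Fabp2.

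Acsl4, a synthetase that prefers arachidonic and other polyunsaturated acids and is known for its part in ferroptosis, stood at 8.69, 9.02 and 7.42 FPKM in KO HFD 1 to 3, against 14.1, 18.1 and 14.1 FPKM in KO chow 1 to 3. The lowest KO chow library was above the highest KO HFD library. The group means were 8.38 ± 0.843 FPKM in KO HFD and 15.5 ± 2.30 FPKM in KO chow (SD, n = 3 each), a ratio of 0.542. On the log2(FPKM + 1) scale the difference was −0.81, with SE 0.14 and adjusted p = 0.0306 in limma on 10 libraries and SE 0.20 and adjusted p = 0.633 on 12. The call on 10 libraries was kept in 2 of the 9 fits that left out 1 further library of a group of 3, KO HFD 2 or KO chow 3, and the adjusted p from limma over those 9 fits was 0.0193 to 0.142. Summed macrophage markers were 133 to 234 FPKM in KO HFD and 81.8 to 118 FPKM in KO chow (9 of 10 listed genes measured). Summed sinusoidal endothelial markers (8 genes) were 44.4 to 49.7 FPKM in KO HFD and 42.8 to 68.6 FPKM in KO chow. The part of these cells in the Acsl4 values was not tested.

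Acsl5, a synthetase of mitochondria and endoplasmic reticulum linked to triglyceride synthesis, stood at 74.6, 69.3 and 82.4 FPKM in KO HFD 1 to 3, against 109.5, 119 and 107 FPKM in KO chow 1 to 3. All KO HFD libraries were below all KO chow libraries. The means were 75.5 ± 6.61 FPKM in KO HFD and 112 ± 6.26 FPKM in KO chow (SD, n = 3 each), a ratio of 0.675. The log2 difference of −0.56 had SE 0.14 and adjusted p = 0.0471 in limma on 10 libraries and SE 0.62 and adjusted p = 0.843 on 12. This call was the most fragile of the 3: it was lost in all 9 fits that left out a further library (limma adjusted p 0.0517 to 0.168), and with median-of-ratios scaling or voom on the 10 libraries.

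Fabp2, the binding protein best known from enterocytes of the small intestine, stood at 102, 133 and 65.0 FPKM in KO HFD 1 to 3, against 45.0, 33.9 and 46.6 FPKM in KO chow 1 to 3. All KO HFD libraries were above all KO chow libraries, though they spread over a wide range themselves. The means were 99.8 ± 33.9 FPKM in KO HFD and 41.8 ± 6.94 FPKM in KO chow (SD, n = 3 each), a ratio of 2.38. The log2 difference of 1.19 had SE 0.25 and adjusted p = 0.0366 in limma on 10 libraries and SE 1.14 and adjusted p = 0.818 on 12. The call was kept in 2 of 9 fits without a further library, KO HFD 3 or KO chow 3 (limma adjusted p 0.0272 to 0.149).

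Markers of intestine and of exocrine pancreas were at higher levels in KO HFD than in KO chow and WT HFD. Fabp2 was higher in KO HFD than in KO chow and overlapped between KO HFD and WT HFD. The 11 listed intestinal epithelium markers, of which only Fabp6 reached the level for testing, summed to 2.14 to 11.1 FPKM in KO HFD and 0.0882 to 0.176 FPKM in KO chow, where Alpi, Sis, Lct, Fabp6 and Cdx1 were at 0. Fabp6 gave 7.72, 0.871 and 2.25 FPKM of the sums in KO HFD 1 to 3, where Fabp2 stood at 102, 133 and 65.0 FPKM. The sum was lowest in KO HFD 2. In WT HFD the sum was 0.0183 to 0.188 FPKM, with 7 of the 11 at 0, and Fabp2 stood at 79.6, 109 and 99.1 FPKM. In WT chow it was 0.922 to 3.60 FPKM, with Fabp2 at 71.9, 4.07 and 0 FPKM. Exocrine pancreas markers (9 genes) summed to 45.2 to 78.0 FPKM in KO HFD, against 0.357 to 0.736 FPKM in KO chow and 0.481 to 0.733 FPKM in WT HFD, where 8 of the 9 were at 0 in each group. In WT chow they summed to 0 to 5.03 FPKM. The part of these transcripts in the results was not tested.

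The other members were not called between diets in KO by limma on 12 or 10 libraries. Acsl1, the main synthetase of liver, stood at 102, 100.1 and 99.7 FPKM in KO HFD 1 to 3, against 273, 133 and 135 FPKM in KO chow 1 to 3. The KO HFD libraries were nearly equal and all below KO chow, whose first library stood well above its other libraries. The log2 difference was −0.75 (SE 0.26, adjusted p = 0.0918 in limma on 10 libraries; SE 0.56, adjusted p = 0.737 on 12). It was −0.41 without KO chow 1. Acsl1 passed in 2 alternatives, limma with array weights on 12 libraries (adjusted p = 0.0413) and with TPM on 10 (adjusted p = 0.0369). Acsl3, a synthetase of the endoplasmic reticulum and of growing lipid droplets, stood at 3.95, 5.05 and 4.07 FPKM in KO HFD, against 6.13, 7.43 and 5.53 FPKM in KO chow. Its groups did not overlap, and the log2 difference of −0.46 had adjusted p = 0.211 on 10 libraries and 0.750 on 12 (limma). Acsl6, known from brain, was at the limit of detection, with 0 to 10 reads per library and 0 to 0.0936 FPKM. It was at 0 reads in KO HFD 1 and 2, KO chow 2, WT HFD 1 and WT chow 2, which allows up to 3 reads by counting error alone.

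Slc27a5, the transport protein that also activates bile acids for conjugation, stood at 166, 284 and 301 FPKM in KO HFD 1 to 3, against 357, 364 and 320.2 FPKM in KO chow 1 to 3. The groups did not overlap, with KO HFD 1 the lowest. The log2 difference of −0.52 had adjusted p = 0.191 on 10 libraries and 0.972 on 12 (limma), and it was −0.24 without KO HFD 1. Slc27a2, a very-long-chain synthetase and uptake protein of hepatocytes, stood at 191, 278 and 249 FPKM in KO HFD, against 324, 216 and 284 FPKM in KO chow, and the groups overlapped. Slc27a4, a transport protein best known from skin and intestine, ran from 7.81 to 11.8 FPKM in KO HFD and from 8.18 to 12.3 FPKM in KO chow. Fabp1, the abundant fatty acid binding protein of liver, stood at 17670.3, 7122 and 8734 FPKM in KO HFD 1 to 3, against 6582, 5403 and 9804 FPKM in KO chow 1 to 3. KO HFD 1 was the highest of these 6 libraries, and the rest of KO HFD lay within the KO chow range.

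**Figure D2:**
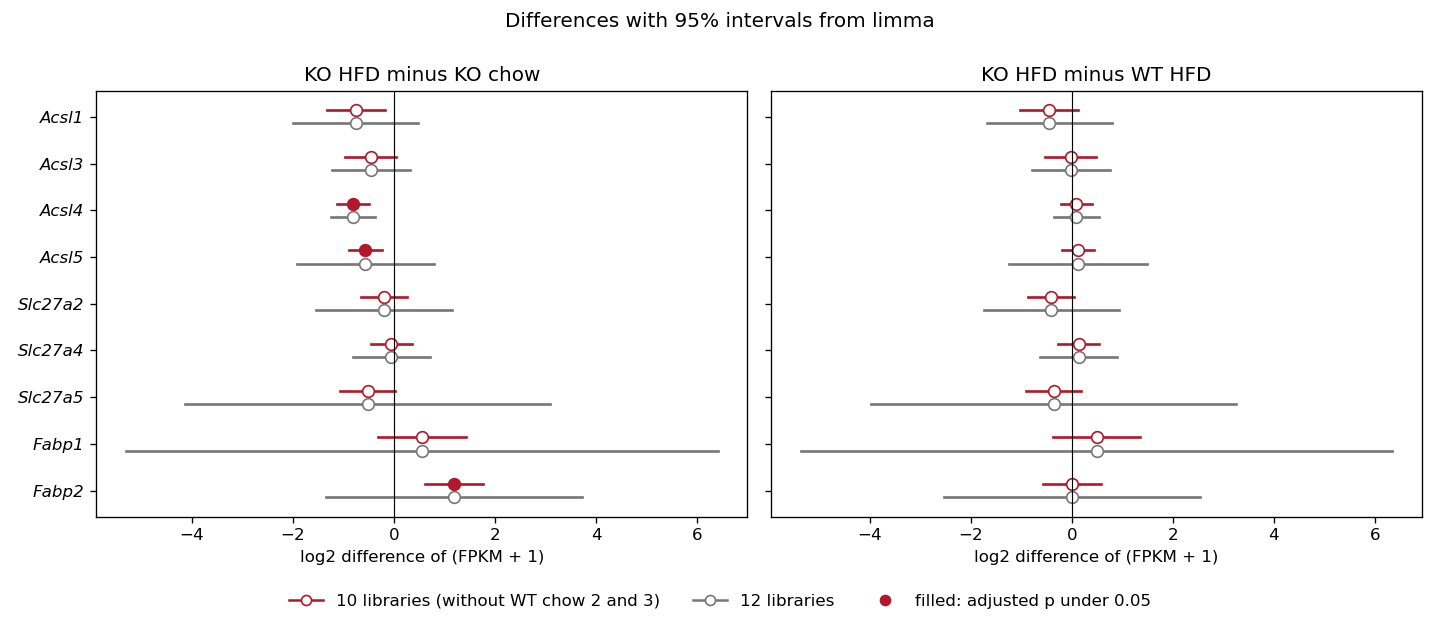
Log2 differences of (FPKM + 1) with 95% intervals from limma for the 9 tested genes, KO HFD minus KO chow on the left and KO HFD minus WT HFD on the right, for 10 libraries (red) and 12 (grey), filled where the adjusted p was under 0.05. Acsl4 (−0.81), Acsl5 (−0.56) and Fabp2 (1.19) are filled for 10 libraries on the left, and none is filled on the right.

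The genotype comparison on the high fat diet asks what the knockout label adds under that diet. None of the 9 tested genes passed in limma on 12 or on 10 libraries, where 0.155% and 0.180% of all genes did. All 8 tested markers of exocrine pancreas were among the genes that passed in each of these fits, each higher in KO HFD. None of the 9 had an unadjusted p under 0.05, as 156 genes did on 12 libraries and 1536 on 10. Acsl1 stood at 102, 100.1 and 99.7 FPKM in KO HFD, against 155, 121 and 138 FPKM in WT HFD, and was lower in every KO HFD library. Its log2 difference was −0.45 (95% interval −1.03 to 0.13 on 10 libraries, limma adjusted p = 0.481). Slc27a2 stood at 191, 278 and 249 FPKM in KO HFD, against 353, 287 and 301 FPKM in WT HFD, and was also lower in every KO HFD library. Its log2 difference was −0.40 (95% interval −0.86 to 0.05 on 10 libraries, limma adjusted p = 0.434), and it was −0.25 without KO HFD 1. Groups did not overlap in that direction for 12.4% of all genes, and for 7.37% in the higher direction, in which there was no member.

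The other 7 tested genes overlapped between KO HFD and WT HFD. Acsl4 ran from 7.42 to 9.02 FPKM in KO HFD and from 7.14 to 8.14 FPKM in WT HFD, and its 95% interval on 10 libraries was −0.22 to 0.40 on the log2 scale. Acsl5 ran from 69.3 to 82.4 FPKM in KO HFD and from 59.2 to 80.3 FPKM in WT HFD (95% interval −0.19 to 0.45). Fabp1 stood at 7122 to 17670.3 FPKM in KO HFD and at 8435, 6485 and 7257 FPKM in WT HFD (95% interval −0.38 to 1.36). Fabp2 ran from 65.0 to 133 FPKM in KO HFD and from 79.6 to 109 FPKM in WT HFD (95% interval −0.56 to 0.58). Slc27a5 was 319, 368 and 253 FPKM in WT HFD, Slc27a4 was 7.90 to 9.48 FPKM and Acsl3 was 2.88 to 6.37 FPKM, each overlapping KO HFD. The comparisons with KO chow and with WT HFD share the KO HFD libraries.

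Within the Acsl family, the share of summed FPKM differed between KO HFD and WT HFD without overlap for Acsl1 and Acsl5, the 2 most abundant members, and for Acsl4. Acsl1 made up 51.5 to 54.6% in KO HFD and 59.7 to 68.3% in WT HFD. Acsl5 made up 37.8 to 42.6% in KO HFD and 26.1 to 35.0% in WT HFD. In KO chow the shares were 48.0 to 67.8% for Acsl1 and 27.2 to 42.8% for Acsl5, which overlapped both groups. In WT chow they were 51.0 to 57.3% for Acsl1 and 33.4 to 47.1% for Acsl5. WT chow 1, at 53.9% and 41.0%, lay inside the KO HFD ranges, so the shares did not follow the genotype label. As parts of the same sum, the shares of Acsl1, Acsl5 and Acsl4 depend on each other. In FPKM, Acsl4 and Acsl5 overlapped between KO HFD and WT HFD, and Acsl1 did not. Acsl4 made up 3.83 to 4.92% in KO HFD, 3.51 to 6.53% in KO chow and 3.51 to 3.57% in WT HFD. These shares are a description and were not tested. Among the Slc27a genes, Slc27a2 and Slc27a5 together left at most 3.20% to Slc27a4 in KO HFD, 1.78% in KO chow and 1.68% in WT HFD, against up to 21.5% in WT chow.

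**Figure D3:**
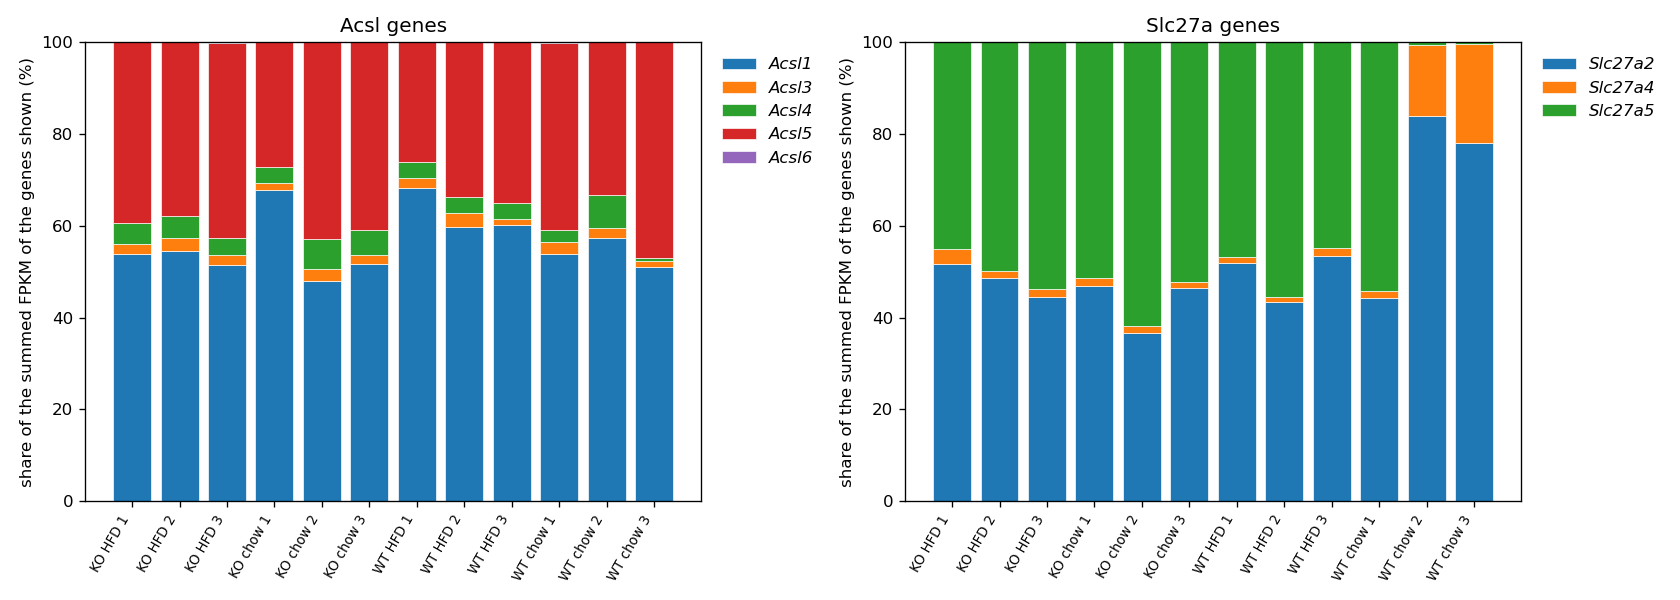
Share of the summed FPKM of the Acsl genes (left) and of the Slc27a genes (right) that each gene takes, as stacked bars from 0 to 100% per library. Acsl1 takes 51.5 to 54.6% in KO HFD, 59.7 to 68.3% in WT HFD and 51.0 to 57.3% in WT chow, and Slc27a5 nearly vanishes from the bars of WT chow 2 and 3.

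The comparisons with WT chow rest on 3 libraries that did not resemble each other. Of the 10 genes, WT chow 2 had 2 above and 5 below the range of the other 10 libraries, and WT chow 3 had 3 above and 5 below it. Slc27a5 stood at 332, 0.881 and 0.159 FPKM in WT chow 1 to 3, and Fabp2 at 71.9, 4.07 and 0 FPKM. Fabp1 stood at 8720.3, 39078 and 2.52 FPKM, so that it was the highest of the 12 libraries in WT chow 2 and the lowest in WT chow 3, with 23 reads there. Acsl1 stood at 134, 73.7 and 432 FPKM, Acsl5 at 102, 43.0 and 398 FPKM and Acsl3 at 6.25, 2.98 and 10.2 FPKM, each lowest in WT chow 2 and highest in WT chow 3 of that group. Slc27a2 stood at 270.2, 140.3 and 35.3 FPKM and Slc27a4 at 9.10, 25.8 and 9.72 FPKM. Summed brown fat markers (10 genes) were 94.3 to 6601 FPKM in WT chow, against 49.8 to 59.4 FPKM in KO HFD, 69.7 to 88.1 in KO chow and 51.5 to 69.4 in WT HFD. These sums include Elovl3 and Ppara, at 45.8 and 37.1 FPKM in KO chow 1 and at 54.1 and 23.6 FPKM in WT chow 1. In KO chow, Ucp1, Dio2 and Otop1 were at 0 in every library. Summed general adipocyte markers were 51.0 to 11932 FPKM in WT chow, against at most 205 FPKM in the other groups. Both highest sums were those of WT chow 3, where Ucp1 stood at 2339 FPKM and the hepatocyte marker Alb at 11.9 FPKM. Ucp1 was at 0 in WT chow 1 and 2, with Alb at 26888 and 7604 FPKM. Of the other brown fat markers in WT chow 2, Cidea stood at 41.7 FPKM, Cox7a1 at 78.0 FPKM and Kcnk3 at 3.04 FPKM. Elovl3 stood there at 0.178 FPKM, Ppara at 2.77, Cpt1b at 0.293 and Prdm16 at 0.00617, with Dio2 and Otop1 at 0. The part of these transcripts in the WT chow values was not tested.

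**Figure D4:**
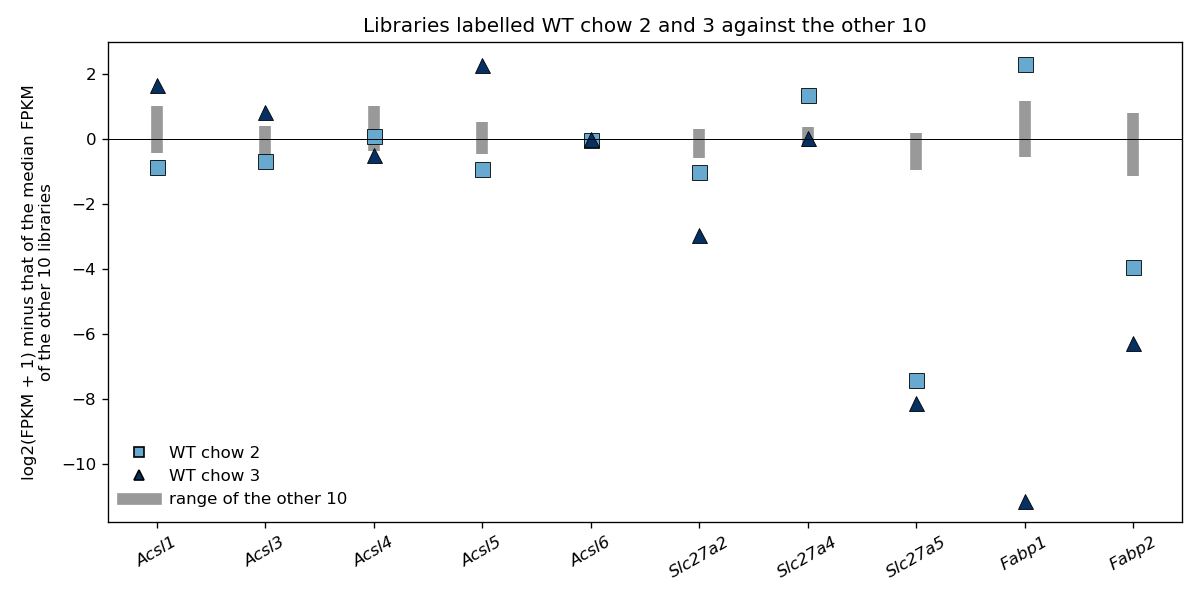
Log2(FPKM + 1) of the libraries labelled WT chow 2 (squares) and WT chow 3 (triangles), minus that of the median FPKM of the other 10 libraries, with grey bars for the range of those 10. Slc27a5 lies far below the bar in both libraries, while Fabp1 lies above it in WT chow 2 (39078 FPKM) and far below it in WT chow 3 (2.52 FPKM).

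No member passed between WT HFD and WT chow or between KO chow and WT chow, where 0% of all genes passed on 12 libraries by limma (0 by voom as well) and 0.00816% (1 gene) on 10. Unadjusted p was under 0.05 for 1807 genes and 3 members in WT HFD against WT chow, and for 2584 genes and 3 members in KO chow against WT chow. For diet in WT, the log2 differences on 12 libraries were 5.11 for Slc27a5, 3.75 for Fabp2 and 1.49 for Slc27a2 (limma adjusted p 0.307, 0.307 and 0.323). On 10 libraries, with WT chow 1 alone in its group and assumed to vary like the others, Slc27a5 came to −0.10, which reverses its direction, Fabp2 to 0.40 and Slc27a2 to 0.21. For KO chow against WT chow, the log2 differences were 5.27 for Slc27a5 and 2.56 for Fabp2 on 12 libraries (limma adjusted p 0.195 and 0.235), and 0.06 and −0.78 on 10. Acsl5, at 59.2, 68.5 and 80.3 FPKM in WT HFD and 102 FPKM in WT chow 1, had a log2 difference of −0.56 on 10 libraries (limma adjusted p = 1) and 0.053 when only WT chow 3 was left out. Without WT chow 1, 3 members and 2435 genes passed in this comparison, and 4 members and 2981 genes in KO chow against WT chow. WT chow 1 is the library of that group that resembles the other 9, and both comparisons share the WT chow libraries. Groups did not overlap for Slc27a2 and Fabp2, both higher in WT HFD than in WT chow, as for 6.82% of all genes.

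Acsl4 was the member whose chow groups differed most relative to their spread. Its level was 14.1, 18.1 and 14.1 FPKM in KO chow 1 to 3, against 6.36, 9.07 and 5.71 FPKM in WT chow 1 to 3. Every KO chow library was above every other library of the series, the next being 9.07 FPKM, while WT chow lay near both HFD groups. How many of all genes had KO chow above all 9 other libraries was not counted, so this position is a description. The log2 difference between KO chow and WT chow was 1.05 (SE 0.20, limma adjusted p = 0.195) on 12 libraries and 1.15 (SE 0.20, limma adjusted p = 0.642) on 10, so it did not pass in either. On 12 libraries 12.4% of all genes had KO chow above WT chow without overlap. The test of whether the diet difference itself differed between genotypes gave −0.96 for Acsl4 (SE 0.28, limma adjusted p = 0.289) on 12 libraries and −1.06 (SE 0.24, limma adjusted p = 0.463) on 10. That test called none of the 9 members, where 0.122% of all genes passed on 12 libraries and 0.0816% on 10. On 12 libraries 2038 genes and 2 members, Acsl4 and Slc27a5, had an unadjusted p under 0.05. For Slc27a5 the term was −5.63 (SE 2.31, limma adjusted p = 0.292) on 12 libraries and −0.41 on 10, with the 2 lowest of its 12 values in WT chow 2 and 3. The 2 comparisons share the KO chow libraries, and this pattern of Acsl4 had been seen in these data before.

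Other genes of the same steps were examined for diet in the libraries labelled KO, on 10 libraries. With 12 libraries none of them passed in the main fit. With array weights on 12 libraries, the 7 genes named here and in the next paragraph passed (limma adjusted p 0.00768 for Fabp7 to 0.0411 for Ppara). On 10 libraries 6.24% of all genes were lower and 1.52% higher, so 1 gene of a list this short differs little from the share of all genes. Of 12 tested synthetases and transport proteins outside the members, 1 was lower and none higher. This was Acss2, which activates acetate, at 12.0, 15.7 and 22.2 FPKM in KO HFD and 29.1, 38.2 and 29.6 FPKM in KO chow (log2 difference −0.95, limma adjusted p = 0.0399). Of 14 tested binding, uptake and acyl-CoA binding genes, 2 were higher and none lower. Fabp7, a binding protein known from brain, was at 4.26, 3.85 and 1.54 FPKM in KO HFD and 1.13, 0.895 and 0.651 FPKM in KO chow (log2 difference 1.10, limma adjusted p = 0.0408). Fabp6, the bile acid binding protein of ileum and one of the intestinal markers above, was at 7.72, 0.871 and 2.25 FPKM in KO HFD and at 0 in the other 9 libraries (limma adjusted p = 0.0401). It entered the test only through the group in which it is high, so its call is a description. Of 13 tested thioesterases, which hydrolyse acyl-CoA, 1 was higher, Acot13, at 137, 103 and 103 FPKM in KO HFD and 58.1, 58.0 and 83.6 FPKM in KO chow (log2 difference 0.78, limma adjusted p = 0.0412). Of these lists the medians were −0.42 for the synthetases, 0.37 for the binding genes and 0.23 for the thioesterases, beside −0.06 for all genes.

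Among 23 tested enzymes that draw on the acyl-CoA pool, 1 was lower in KO HFD and none higher, with a list median of −0.11. Over all genes on 10 libraries, 6.24% were lower and 1.52% higher. Gpam, the mitochondrial enzyme that commits acyl-CoA to glycerolipid synthesis, was at 8.46, 12.8 and 7.23 FPKM in KO HFD and 28.7, 38.8 and 20.8 FPKM in KO chow (log2 difference −1.53, limma adjusted p = 0.0306). Among 13 nuclear receptors and regulators 2 were lower and none higher, with a median of −0.25. Ppara, the fatty acid receptor whose known targets include Acsl1, Fabp1 and Slc27a2, was at 5.91, 19.7 and 9.94 FPKM in KO HFD and 37.1, 35.6 and 21.9 FPKM in KO chow (log2 difference −1.45, limma adjusted p = 0.0459). Srebf2, a regulator of sterol synthesis, was at 5.89, 5.69 and 7.95 FPKM in KO HFD and 13.6, 14.2 and 8.84 FPKM in KO chow (log2 difference −0.80, limma adjusted p = 0.0439). On 9 libraries, without KO HFD 1, none of these 7 genes passed except Fabp6, whose entry into the test rests on KO HFD, and each call on 10 libraries was lost in 6 to 8 of the 9 fits that left out 1 further library. In the other 3 comparisons between groups and in the test of the diet difference between genotypes, none of these lists held a gene that passed, on 12 or on 10 libraries.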

How the data were processed

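RNA of 12 libraries labelled mouse liver was sequenced. The authors deposited FPKM for 35275 genes with gene length, position and type, per the file headers. The submitters' processing notes name GRCm38, mm10 and the tools CASAVA, STAR, TopHat, DESeq2 (version 2, as written there) and HTSeq 0.6.1. Not given in the sources used here are the filters, the role of each tool, the strand setting and the release of the annotation. Reads of overlapping genes or close family members could therefore have been shared or lost. All columns were mapped by sample title, with 0 unmapped, and 27 symbols that had turned into dates were restored. FPKM times length gave whole reads for at least 99.95% of non-zero values (tolerance 0.1 read), and a count of 0 was read as allowing 3 reads, counting error only.

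Values were tested as log2(FPKM + 1), which understates changes of low genes, for 12251 genes with a mean of at least 0.5 FPKM, in limma 3.58.1 under R 4.3.3 (trended empirical Bayes, 4 group means, Benjamini-Hochberg over all genes, threshold 0.05). The same was done on 10 libraries, without WT chow 2 and 3, and on 9, also without KO HFD 1. The test was checked on simulated data. All simulated libraries had the same spread and none was like WT chow 2 or 3, so the check does not cover the effect of those libraries. The members and lists were chosen with earlier results of these data known. All 10 members are named. Log2 differences of members are printed where the unadjusted p was under 0.05 or groups did not overlap, and of other lists up to 4 genes past the threshold. Same-numbered libraries did not deviate together, so numbers were not used as pairs. Alternatives covered the pseudocount, filter, scaling (TPM, median-of-ratios), library weights, voom on the recovered reads, a replicate block and leaving out each library. Promoters are from RefSeq (GRCm38.p6, 9 of 10 members matched; Slc27a5 is not shown). Plots were made in Python 3.11.15 (matplotlib 3.10.9).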

Additional observations from a re-analysis of the deposited data

How the results depend on the processing

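No member passed between KO HFD and WT HFD under any of the alternatives run. For diet in KO, the count of members past the threshold, 0 on 12 libraries, was 3 on 10 libraries, 4 with array weights and 4 with TPM on 10 libraries (Acsl1 among them in both), 2 with median-of-ratios on 10 and 2 with voom on 10; it was 0 to 2 over all fits that left out a library, and 0 on 9 libraries. Added after seeing the data were the 10-library fits with TPM, median-of-ratios, voom and a replicate block. The count of all genes there, 19, was 31 with no filter, 3 at a mean of at least 2 FPKM, 2420 with array weights, 12 with voom, 951 on 10 libraries, 39 on 9, and 2231 (TPM), 888 (median-of-ratios), 1227 (voom) and 31 (replicate block) on 10, with 14 to 1535 over fits without a library. Between KO HFD and WT HFD, 19 became 3 at a mean of at least 2 FPKM and 33 with array weights, and 16 to 26 without a library. For diet in WT, 0 became 1 on 10 libraries and 3 on 9, and 0 to 2435 without a library (members 0 to 3); for KO chow against WT chow, 0 became 4 with no filter, 1 on 10 libraries and 3 on 9, and 0 to 2981 (members 0 to 4). For the interaction, 15 became 6 with pseudocount 0.1, 25 with no filter, 1 at a mean of at least 2 FPKM, 4 with the replicate block, 7 with array weights, 0 with voom and 24 on 9 libraries, and 5 to 2265 without a library (members 0 to 3); the high ends of these last 3 comparisons came without WT chow 1. Of the differences printed in the report, 2 reversed on 10 and 9 libraries: Slc27a5 for diet in WT (−0.10, range −0.22 to 7.72 without a library) and Fabp2 for KO chow against WT chow (−0.78, range −0.86 to 4.24). Acsl5 for diet in WT ranged from −1.54 to 0.053. The cause of these moves was not tested. The numbers of the libraries did not pair them (correlations of same-numbered deviations −0.50 to 0.13), and the replicate block on 10 libraries left 0 members past the threshold. TPM moved the median log2 difference of all genes to −0.23 for diet in KO, −0.13 for KO HFD against WT HFD, 0.12 for diet in WT, 0.25 for KO chow against WT chow and −0.37 for the interaction; Acsl4, Acsl5 and Fabp2 kept their directions for diet in KO under both scalings. With 3 libraries a group, a member that did not pass is not shown to be equal between groups.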

Other observations

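Several genes of acyl-CoA handling were high in the same pair of libraries that had the highest Fabp1, KO HFD 1 (17670.3 FPKM) and WT chow 2 (39078 FPKM), which come from different groups. The choice of these genes was made with their values in view. Acot1, a cytosolic thioesterase known as a target of the fatty acid receptor Ppara, stood at 319 FPKM in KO HFD 1 and 1006 FPKM in WT chow 2, against 3.26 to 15.2 FPKM in the other 10 libraries. Acot3, a peroxisomal thioesterase, stood at 75.0 FPKM in KO HFD 1 and 104 FPKM in WT chow 2, against at most 6.11 FPKM elsewhere. Mogat1, which acylates monoglyceride, stood at 37.3 FPKM in KO HFD 1 and 85.3 FPKM in WT chow 2, against at most 2.22 FPKM elsewhere. The fatty acid transport protein gene Slc27a1 stood at 34.1 FPKM in KO HFD 1, 74.0 FPKM in WT chow 2 and 76.8 FPKM in WT chow 3, against 1.16 to 3.19 FPKM in the other 9. The level of Ppara itself was low in both libraries, at 5.91 FPKM in KO HFD 1 and 2.77 FPKM in WT chow 2, the lowest values of the series. Slc27a5, among the members, was lowest in the 3 libraries WT chow 3, WT chow 2 and KO HFD 1, at 0.159, 0.881 and 166 FPKM. No difference between groups was read from these values.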
